A study of Mus musculus with 23 samples.

Results

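The genes described here are *Dlk1* and 9 other imprinted genes that act on growth, *Meg3*, *Rian*, *Igf2*, *H19*, *Cdkn1c*, *Grb10*, *Peg3*, *Plagl1* and *Mest*. They were taken by symbol from the normalized counts of 35455 genes in one comparison of mouse lung tumor cells and of 35454 genes in another. Of the 10 genes, 7 have a row in both tables, and *Meg3*, *Rian* and *H19*, which make long noncoding RNAs, were not analysed here. Of the genes that the GENCODE vM21 annotation types as lincRNA, 26 of 5843 have a row, against 21667 of 21923 protein coding genes. *Dlk1* was selected on its measured difference between tumors with and without activated PI3K, where its values were low with PI3K, so its values in that comparison are a description and carry no test. The other genes were picked as imprinted genes.

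RNA of 23 libraries came from tdTomato+ lung cells that were isolated by flow sorting from mice of a mixed C57BL/6, 129 and FVB background and 3 to 4 months of age. Every mouse carried 1 *Braf* CAT allele, which after CRE has acted expresses BRAFV600E and tdTomato together, and CRE came from an adenovirus with the *Sftpc* promoter, active in alveolar type 2 (AT2) cells. In 6 libraries BRAFV600E was the only engineered oncogene (1 library from week 2 after infection, p.i., 3 from week 6 and 2 from week 12), and 8 also carried the CRE-activated PI3Kα H1047R allele (2, 4 and 2 at the same times). The other 9 came from BRAFV600E tumors at 12 weeks p.i. in which 1 allele (BRAFV600E/PGC1αHet, 5 libraries) or both alleles (BRAFV600E/PGC1αNull, 4 libraries) of *Ppargc1a*, the gene of the transcriptional coactivator PGC1α, were floxed. Mice taken at 12 weeks in the PI3K comparison had received less virus than those taken earlier, so week and virus dose cannot be told apart. The normalized counts of a library added up to between 16433820 and 20287296 in the PI3K table and between 7115753 and 9159567 in the PGC1α table.

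In genomic imprinting, only the copy inherited from one parent is transcribed. *Dlk1*, *Rtl1* and *Dio3* lie in 1 domain and are transcribed from the paternal chromosome, while *Meg3*, *Rian* and a large group of microRNAs are transcribed from the maternal one, and a differentially methylated region between *Dlk1* and *Meg3* sets which side is active. *Dlk1* makes a membrane protein with EGF-like repeats, related to the Notch ligands, that is abundant in fetal tissues and keeps precursor cells from differentiating. As a group, paternally expressed genes such as *Igf2* tend to favor growth, and maternally expressed genes such as *Cdkn1c* and *Grb10* tend to limit it.

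*Dlk1* lies on the plus strand at chr12:109452823-109463336 (GRCm38, GENCODE vM21). *Meg3* starts 88.2 kb, *Rtl1* 147.5 kb, *Rian* 151.1 kb and *Dio3* 826.2 kb from the *Dlk1* start. *Rtl1* and *Dio3* have rows in both tables and stand in here for the rest of the domain. The *Dlk1* promoter is shown because *Dlk1* is the gene this set was built around and because PI3K signaling keeps FOXO transcription factors out of the nucleus. The window, chr12:109452573-109452872 on the plus strand of GRCm38.p6, runs from 250 bases before to 50 bases after the start in RefSeq, and capitals mark CG pairs and the FOXO motif GTAAACA in either orientation.
Dlk1 promoter: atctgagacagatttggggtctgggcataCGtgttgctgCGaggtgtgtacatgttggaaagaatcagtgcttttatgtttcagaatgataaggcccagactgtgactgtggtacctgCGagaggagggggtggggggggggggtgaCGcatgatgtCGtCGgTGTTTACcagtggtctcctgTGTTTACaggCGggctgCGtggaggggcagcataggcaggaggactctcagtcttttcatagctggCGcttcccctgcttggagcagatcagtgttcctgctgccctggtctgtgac
The motif was found 2 times, both in the reverse orientation, with their first bases 87 and 67 bases upstream of the start and with no overlap. Of 32851 promoter windows of this length, 3.65% held the motif at least once and 0.11% held it at least 2 times. Promoter windows were found for 8 of the 10 genes, and in none of the windows of the other 7 genes was the motif found. The *Dlk1* window held 9 CG pairs against a median of 7 over all windows. Neither the NR5A2 motif CAAGGTCA, held by 1.56% of windows, nor TATAAA, held by 13.6%, was found in it. These are matches of letters in this window, which do not identify the factor that binds, and binding was not measured.

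In BRAFV600E tumor cells *Dlk1* had 525 normalized counts in the week 2 library, 1626, 1840 and 324 in week 6, and 335 and 902 in week 12. In BRAFV600E/PI3KαH1047R cells it had 37.7 and 0.566 at 2 weeks, 79.6, 234, 21.6 and 13.2 at 6 weeks, and 108 and 73.7 at 12 weeks. Every BRAFV600E/PI3KαH1047R library was below every BRAFV600E library, and the lowest BRAFV600E library, at 324, was nearest to the highest of the other group, at 234. By label, the BRAFV600E library at 324 came from a male and the others of that genotype from females. The BRAFV600E/PI3KαH1047R libraries came from both sexes, so genotype and sex were not balanced. The means were 925 ± 663 (SD, n = 6) and 71.0 ± 75.5 (SD, n = 8). The difference on the log2(normalized count + 1) scale was -4.34 (SE 0.89, 95% interval -6.23 to -2.45), the eighth lowest of the 17558 genes tested, those averaging 10 or more normalized counts. With labelled sex as a factor the difference was -3.31. The gap between the genotypes is what put *Dlk1* in the set, and nothing further is drawn from it. Groups that did not overlap in this direction were found for 22 of the 17558 genes (0.125%), and in the opposite direction for 15 (0.0854%).

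**Figure D1:**
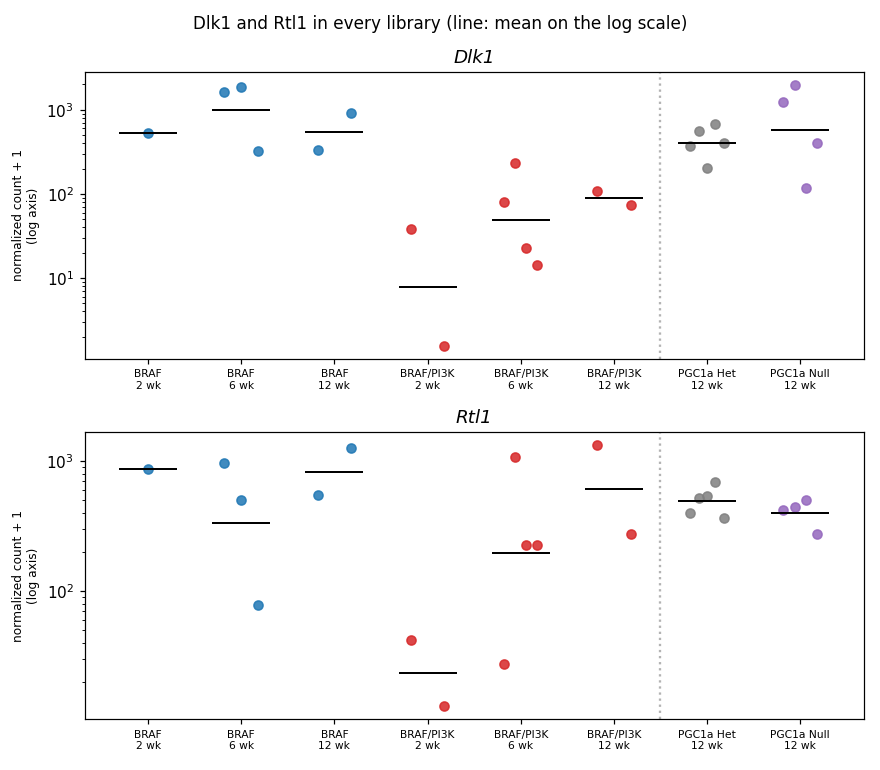
Normalized count plus 1, on a log axis, of *Dlk1* (upper) and *Rtl1* (lower) in each of 23 libraries by genotype and week p.i.; points are libraries, lines are means on the log scale, and the dotted line parts tables that were normalized separately. All 8 BRAFV600E/PI3KαH1047R libraries (at most 234) sit below all 6 BRAFV600E libraries (at least 324) for *Dlk1*, while for *Rtl1* the genotypes overlap.

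A row named AC165954.1 holds the same values as *Dlk1* to every digit in all 23 libraries. AC165954.1 is not a gene name in GENCODE vM21, and no stretch of 31 bases of the *Dlk1* transcripts in vM21 occurs in a transcript of another gene there. Rows with the same values in every library numbered 185, in 87 sets, among the 17558 genes tested in the PI3K table, and *Dlk1* was the only one of the 8 measured genes among them. How reads were divided between the rows was not tested, so the level of *Dlk1* may be given in part by the other row. With both rows summed, the difference for *Dlk1* was -4.42.

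Of the other imprinted genes listed for the domain, only *Rtl1* could be tested, and its difference between the genotypes did not pass. *Rtl1*, a paternally expressed gene derived from a retrotransposon and needed in placental vessels, had 862 normalized counts in the BRAFV600E library at 2 weeks, 974, 502 and 76.6 at 6 weeks, and 551 and 1252 at 12 weeks. In BRAFV600E/PI3KαH1047R cells it had 40.8 and 12.0 at 2 weeks, 26.2, 1068, 223 and 225 at 6 weeks, and 1327 and 275 at 12 weeks. The genotypes overlapped widely, since the highest value of all came from a BRAFV600E/PI3KαH1047R library at 12 weeks. The pooled difference was -1.80 (SE 0.99, 95% interval -3.91 to 0.31, adjusted p = 0.743, limma with Benjamini-Hochberg adjustment over all genes tested). Adjusted p ran from 0.473 to 0.99 over the alternatives. The interval holds both no difference and a fall close to that of *Dlk1*. With the endothelial marker level as a covariate the *Rtl1* difference was -0.34, and that of *Dlk1* was -3.84. MicroRNA genes such as *Mir433* lie on the strand opposite *Rtl1*, and 5.99% of its 31-base stretches occur in reverse in other transcripts. Whether counting used strand is not given in the sources used here, so reads from that strand cannot be told apart from those of *Rtl1*. *Dio3*, which makes the deiodinase that inactivates thyroid hormone, was listed at 0 in all 6 BRAFV600E libraries and in 7 of the 8 BRAFV600E/PI3KαH1047R libraries, with 4.39 in the remaining one.

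Within 1 Mb of the *Dlk1* start, 21 genes have a row and 11 passed the filter on low values. Of the 10 other than *Dlk1*, 0 passed an adjusted p under 0.05 by limma and 2 had an unadjusted p under 0.05, while over all genes 4 of 17558 (0.0228%) passed, 3 of them higher and 1 lower in BRAFV600E/PI3KαH1047R cells, and 1200 had an unadjusted p under 0.05. Of these 10, *Rtl1* and the pseudogenes *Gm3379* and *Gm48048* had differences below 0, and the median of the 10 was 0.25, against 0.02 over all genes. *Wdr25*, 559.2 kb before *Dlk1*, was 1.13 higher (SE 0.25, adjusted p = 0.212), and *Evl*, an actin regulator 898.1 kb before it, was 1.27 higher (SE 0.77, adjusted p = 0.756). *Gm3379*, 442.3 kb beyond *Dlk1*, had a difference of -1.99 (SE 0.84, adjusted p = 0.677) at a mean of 25.1 normalized counts. Of 12 flanking genes listed, 10 were tested and 9 had a difference above 0. The lowest of these were *Hsp90aa1*, a chaperone, at -0.42 and *Dync1h1*, the dynein heavy chain, at 0.03. The 3 lowest values of the window were those of *Dlk1*, *Gm3379* and *Rtl1*, which lie within 442.3 kb of each other. The value of *Dlk1* is the one that chose it, and neither of the others passed. The next nearest gene tested was *Wars*, 558.6 kb before *Dlk1*, so the closeness of the 3 in part reflects which rows were tested.

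**Figure D2:**
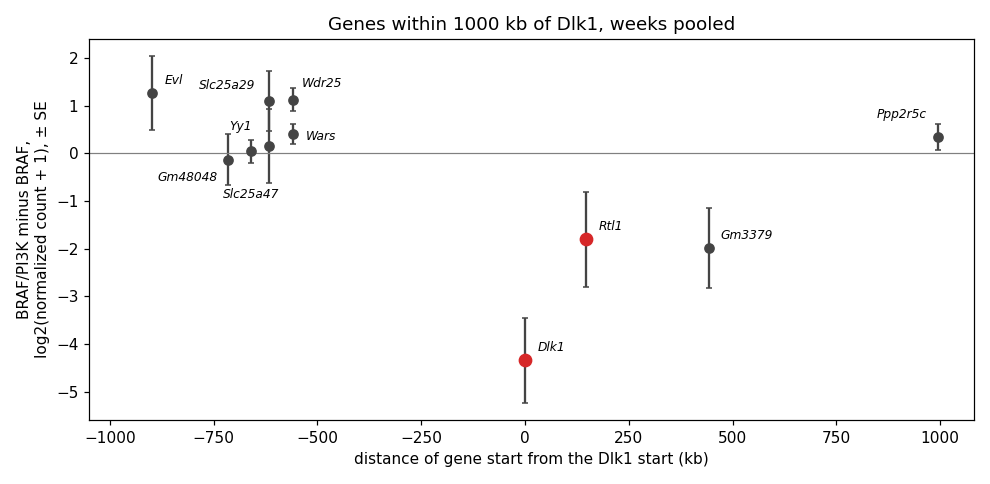
Difference between BRAFV600E/PI3KαH1047R and BRAFV600E libraries (weeks pooled, log2(normalized count + 1), with SE from limma) against the distance in kb of each gene's start from the *Dlk1* start, for the 11 tested genes within 1 Mb; *Dlk1* and *Rtl1* are red. *Dlk1* is at -4.34, *Rtl1* at -1.80, and the genes more than 500 kb away lie between -0.14 and 1.27.

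*Dlk1* and *Rtl1* were also compared across libraries within BRAFV600E, within BRAFV600E/PI3KαH1047R and over the PGC1α table, sets that leave out the comparison that chose *Dlk1*. The first 2 sets mix weeks and virus doses, and the last one pools BRAFV600E/PGC1αHet and BRAFV600E/PGC1αNull libraries, so each r was also computed from values centred within week or, in the PGC1α table, within genotype. *Dlk1* and *Rtl1* were related by Pearson's r = 0.52 in 6 BRAFV600E libraries (exact permutation p = 0.311, Spearman's rho = 0.37, exact p = 0.497). In 8 BRAFV600E/PI3KαH1047R libraries r was 0.67 (exact p = 0.0652, rho = 0.64, exact p = 0.0962), and over the 9 PGC1α libraries it was -0.03 (exact p = 0.934, rho = 0.03, exact p = 0.948). After adjustment over the 69 relations computed, the p-values for r were 0.488, 0.187 and 0.948 and those for rho 0.686, 0.318 and 1. Without the 2 libraries farthest from the median of *Dlk1*, r was 0.74 (n = 4), 0.12 (n = 6) and 0.09 (n = 7). Centred, r was 0.94, 0.38 and 0.06, the first of these with 1 library that was alone in its week. The relation in BRAFV600E/PI3KαH1047R cells thus rested on the 2 farthest libraries, and no relation passed the adjusted threshold. The 6 other imprinted genes gave r with *Dlk1* from -0.37 to 0.25 in BRAFV600E cells, from -0.67 to -0.09 in BRAFV600E/PI3KαH1047R cells and from -0.24 to 0.72 in PGC1α cells. The highest of these was for *Plagl1* in the PGC1α libraries (r = 0.72, exact p = 0.0289, adjusted p = 0.125, rho = 0.72, exact p = 0.0369, adjusted p = 0.196). Without the 2 farthest libraries it was 0.09, and centred within genotype it was 0.82. In BRAFV600E cells r of *Dlk1* and *Plagl1* was 0.25, and centred within week it was 0.96, with no test of either centred value.

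The 6 measured imprinted genes outside the domain had no difference that passed the test in the PI3K comparison. With weeks pooled, 5 had a difference above 0 and *Plagl1* one below 0, their median was 0.68 against 0.02 over all genes, 0 of 6 passed an adjusted p under 0.05, and 0 had an unadjusted p under 0.05. In all 6 the genotypes overlapped.

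Of the paternally expressed genes, *Igf2*, the fetal insulin-like growth factor (chr7:142650766-142666816), had 29.5 normalized counts in the BRAFV600E library at 2 weeks, 46.0, 129 and 117 at 6 weeks, and 371 and 35.0 at 12 weeks. With PI3KαH1047R added it had 271 and 177 at 2 weeks, 304, 130, 108 and 101 at 6 weeks, and 62.6 and 129 at 12 weeks. The BRAFV600E libraries alone spanned both the lowest and the highest value, and the difference was 0.81 (SE 0.53, adjusted p = 0.77). In vM21, 61.9% of the 31-base stretches of *Igf2* transcripts occur in other genes, most of them in the overlapping *Gm49394*, so its level is uncertain. *Mest*, a gene of a hydrolase-like enzyme (chr6:30723547-30748465), had 47.2 at 2 weeks, 168, 358 and 481 at 6 weeks, and 80.9 and 178 at 12 weeks in BRAFV600E cells. BRAFV600E/PI3KαH1047R libraries had 707 and 688 at 2 weeks, 563, 239, 171 and 120.6 at 6 weeks, and 76.2 and 177 at 12 weeks. Its libraries overlapped at 6 and 12 weeks, and the pooled difference was 0.63 (SE 0.60, adjusted p = 0.856). *Copg2*, which has a row of its own, overlaps *Mest* on the other strand, and 22% of the *Mest* stretches occur in reverse in other transcripts.

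*Peg3*, a zinc finger gene (chr7:6703892-6730431), ranged from 180.3 to 821 normalized counts with a median of 546 in BRAFV600E cells and from 309 to 2046 with a median of 502 in BRAFV600E/PI3KαH1047R cells, a difference of 0.44 (SE 0.49, adjusted p = 0.874). *Plagl1*, a zinc finger transcription factor gene (chr10:13060504-13131694), ranged from 671 to 2862 with a median of 1087 in BRAFV600E cells and from 309 to 2051 with a median of 722 in BRAFV600E/PI3KαH1047R cells. Its difference was -0.58 (SE 0.38, adjusted p = 0.77), and its highest values came from 1 library of each genotype.

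Of the maternally expressed genes, *Cdkn1c*, which makes the cyclin-dependent kinase inhibitor p57 (chr7:143458339-143461050), had 19.2 normalized counts in the BRAFV600E library at 2 weeks, 45.9, 273 and 149 at 6 weeks, and 661 and 18.7 at 12 weeks. BRAFV600E/PI3KαH1047R libraries had 398 and 299 at 2 weeks, 402, 358, 346 and 31.2 at 6 weeks, and 17.8 and 97.6 at 12 weeks. The lowest libraries of both genotypes were nearly level, the highest was a BRAFV600E library, and the difference was 0.81 (SE 0.92, adjusted p = 0.876). An antisense gene, *Gm44732*, overlaps *Cdkn1c*, and 27.2% of its stretches occur in reverse. *Grb10*, which makes an adaptor that dampens insulin and IGF receptor signaling (chr11:11930508-12038683), ranged from 113 to 920 with a median of 496 in BRAFV600E cells and from 349.7 to 1622 with a median of 598 in BRAFV600E/PI3KαH1047R cells. Its difference was 0.72 (SE 0.46, adjusted p = 0.763).

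**Figure D3:**
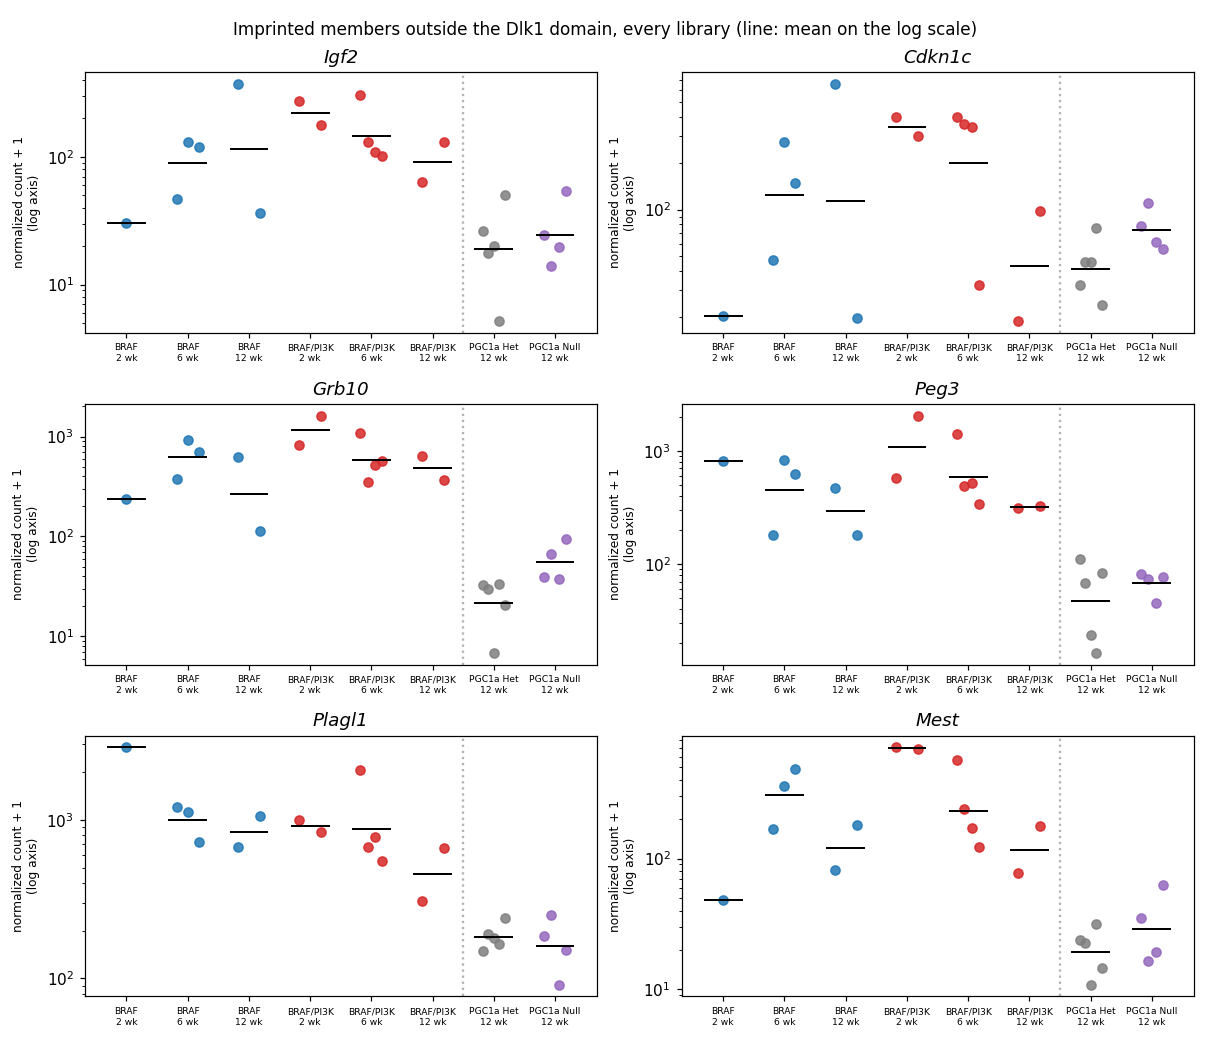
Normalized count plus 1, on a log axis, of *Igf2*, *Cdkn1c*, *Grb10*, *Peg3*, *Plagl1* and *Mest* in each of 23 libraries by genotype and week p.i.; points are libraries, lines are means on the log scale, and the dotted line parts tables that were normalized separately. The genotypes of the PI3K comparison overlap in all 6 genes, and at 2 weeks the BRAFV600E library (29.5 for *Igf2*) lies below both BRAFV600E/PI3KαH1047R libraries (177 and 271) for *Igf2*, *Cdkn1c*, *Grb10* and *Mest*.

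By week, the difference in *Dlk1* between the genotypes was -6.08 (SE 1.83) in week 2, -4.32 (SE 1.14) in week 6 and -2.61 (SE 1.5) in week 12, again as a description. The change of this difference from 6 to 12 weeks was 1.71 (SE 1.88), with no test, and that of *Rtl1* was 0.32 (SE 1.88, adjusted p = 1 by limma). In the test of this change 0 of 17558 genes passed (0%), and 504 had an unadjusted p under 0.05. Across genotypes, *Dlk1* was 2.10 higher at 6 than at 2 weeks (95% interval -0.15 to 4.35, adjusted p = 0.457, and 0.59 without BRAFV600E/PI3KαH1047R replicate 2 of 2 weeks), where 9 of 17558 genes passed (0.0513%), and 0.02 higher at 12 than at 6 weeks (95% interval -2.02 to 2.06, adjusted p = 0.998), where 0 genes passed (0%) and 933 had an unadjusted p under 0.05. *Rtl1* was 1.52 higher at 6 than at 2 weeks (95% interval -0.93 to 3.97, adjusted p = 0.65, and 0.47 without that same library) and 1.41 higher at 12 than at 6 weeks (95% interval -0.81 to 3.64, adjusted p = 0.908). For the 6 genes outside the domain the change from 2 to 6 weeks lay between -0.87 and 0.35, and that from 6 to 12 weeks was below 0 in all 6, from -1.17 for *Cdkn1c* to -0.14 for *Igf2*. None passed an adjusted p under 0.05.

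Of the measured imprinted genes other than *Dlk1*, which was not tested, none passed an adjusted p under 0.05 at 2 weeks. *Mest* was 3.86 higher in BRAFV600E/PI3KαH1047R cells (SE 0.89, adjusted p = 0.111 by limma), *Cdkn1c* was 4.10 higher (SE 1.92, adjusted p = 0.381), *Igf2* 2.85 higher (SE 1.16, adjusted p = 0.316) and *Grb10* 2.28 higher (SE 0.92, adjusted p = 0.313). *Rtl1* differed by -5.21 (SE 1.83, adjusted p = 0.244), *Plagl1* by -1.64 (SE 0.70, adjusted p = 0.342), and *Peg3* by 0.42 (SE 1.02, adjusted p = 0.903). With the endothelial level as a covariate these differences were -1.41 for *Rtl1*, 0.31 for *Grb10*, 2.78 for *Mest*, -0.046 for *Cdkn1c*, -0.056 for *Igf2*, -2.13 for *Plagl1* and -1.75 for *Peg3*. These rest on 1 BRAFV600E library from a female mouse and 2 BRAFV600E/PI3KαH1047R libraries from males, whose spread was taken from the other weeks. Without BRAFV600E/PI3KαH1047R replicate 1 of 6 weeks, a library that stood apart in *Igf2*, *Peg3* and *Plagl1*, *Mest* at 2 weeks passed (adjusted p = 0.0344 by limma), and the number of genes that passed in that week went from 3 to 268. In that week 3 of 17558 genes passed (0.0171%). At 6 weeks the 6 genes outside the domain had differences from -0.42 to 0.69, and *Rtl1* one of -0.78 (SE 1.14, adjusted p = 1), where 4 genes passed (0.0228%). At 12 weeks they ran from -1.41 for *Cdkn1c* to 0.86 for *Grb10*, and *Rtl1* was at -0.46 (SE 1.49, adjusted p = 1), where 2 genes passed (0.0114%).

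Some of these genes varied across libraries together with markers of endothelial or AT2 cells. In BRAFV600E/PI3KαH1047R cells, markers of alveolar type 1 (AT1) cells and of fibroblasts were high in the same libraries as the endothelial ones. All 10 endothelial markers listed were above 0 in all 14 libraries of the PI3K table, and their summed level ran from 5854 to 43367 normalized counts in BRAFV600E cells and from 13374 to 85973 in BRAFV600E/PI3KαH1047R cells. The summed level of 12 fibroblast and pericyte markers ran from 4083 to 25002 and from 6535 to 56710, and that of 8 AT1 markers from 27961 to 100755 and from 26367 to 161897. In both BRAFV600E/PI3KαH1047R libraries of 2 weeks and in replicate 1 of 6 weeks, the 3 with the highest endothelial sums, AT1 markers summed to 157607, 161897 and 128134 against at most 61602 in the other 5, and fibroblast and pericyte markers to 53840, 56710 and 40760 against at most 16229. In BRAFV600E cells the sums did not all go together. The library of 2 weeks had the highest AT1 sum, 100755, and a fibroblast and pericyte sum of 21833, with an endothelial sum of 7578. The parts of these cell types cannot be told apart here, and whether a relation is particular to the endothelial sum was not tested. The 12 AT2 markers were present throughout, at sums of 565761 to 1599985 and of 82642 to 1152725. At 2 weeks the endothelial sum was 7578 in the BRAFV600E library and 60515 and 61615 in the BRAFV600E/PI3KαH1047R libraries, and the AT2 sum was 830916 against 175657 and 82642. In sorted cells measured in bulk, fewer cells of a type and less RNA per cell cannot be told apart.

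In the 8 BRAFV600E/PI3KαH1047R libraries, *Plagl1* (r = 0.89, exact permutation p = 9.92e-05, adjusted p = 0.00685), *Igf2* (r = 0.94, exact p = 0.000397, adjusted p = 0.0137), *Mest* (r = 0.95, exact p = 0.00169, adjusted p = 0.0371) and *Peg3* (r = 0.85, exact p = 0.00499, adjusted p = 0.0479) were higher where the endothelial sum was higher. *Rtl1* was lower where it was higher (r = -0.91, exact p = 0.0032, adjusted p = 0.0371) and higher where the AT2 sum was higher (r = 0.88, exact p = 0.00322, adjusted p = 0.0371), and *Grb10* was lower where the AT2 sum was higher (r = -0.90, exact p = 0.00241, adjusted p = 0.0371). Spearman's rho for these 7 relations was 0.95, 0.88, 0.81, 0.90, -0.90, 0.86 and -0.88, with adjusted exact permutation p-values of 0.0787, 0.0999, 0.188, 0.0999, 0.0999, 0.123 and 0.0999, and without the 2 libraries farthest from the median of the marker sum r was 0.85, 0.96, 0.97, 0.75, -0.85, 0.81 and -0.89. Both libraries of week 2 had the lowest AT2 sums and, after replicate 1 of 6 weeks at 85973, the highest endothelial sums, and the permutation takes no account of week. From values centred within week, r was 0.97, 0.91, 0.93, 0.73, -0.83, 0.77 and -0.98, with no test. In the 6 BRAFV600E libraries *Grb10* was higher where the endothelial sum was higher (r = 0.93, exact permutation p = 0.00556, adjusted p = 0.0479, rho = 0.83, exact p = 0.0583, adjusted p = 0.237), and r was 0.84 without the 2 farthest. *Rtl1* and the endothelial sum gave r = -0.79 in BRAFV600E and -0.67 in PGC1α libraries, and *Rtl1* and the AT2 sum 0.86 and 0.72, and these did not pass. *Plagl1* and the endothelial sum gave r = -0.66 in BRAFV600E cells, opposite in sign to BRAFV600E/PI3KαH1047R cells, and the difference between the genotypes was not tested. Centred, *Rtl1* in the PGC1α libraries gave r = -0.79 with the endothelial and 0.68 with the AT2 sum. *Dlk1* gave r = -0.32, -0.33 and 0.08 with the endothelial sum and 0.45, 0.71 and 0.43 with the AT2 sum in the BRAFV600E, BRAFV600E/PI3KαH1047R and PGC1α libraries, with no adjusted p under 0.05. Its r with the AT2 sum was 0.14, 0.21 and 0.88 without the 2 farthest libraries and 0.87, 0.43 and 0.54 when centred. With the endothelial level as a covariate, the pooled differences of *Igf2*, *Cdkn1c*, *Peg3* and *Mest* were -0.002, -0.524, -0.156 and -0.125, where they had been above 0 without it, that of *Grb10* went from 0.72 to 0.032 and that of *Plagl1* from -0.58 to -0.68.

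**Figure D4:**
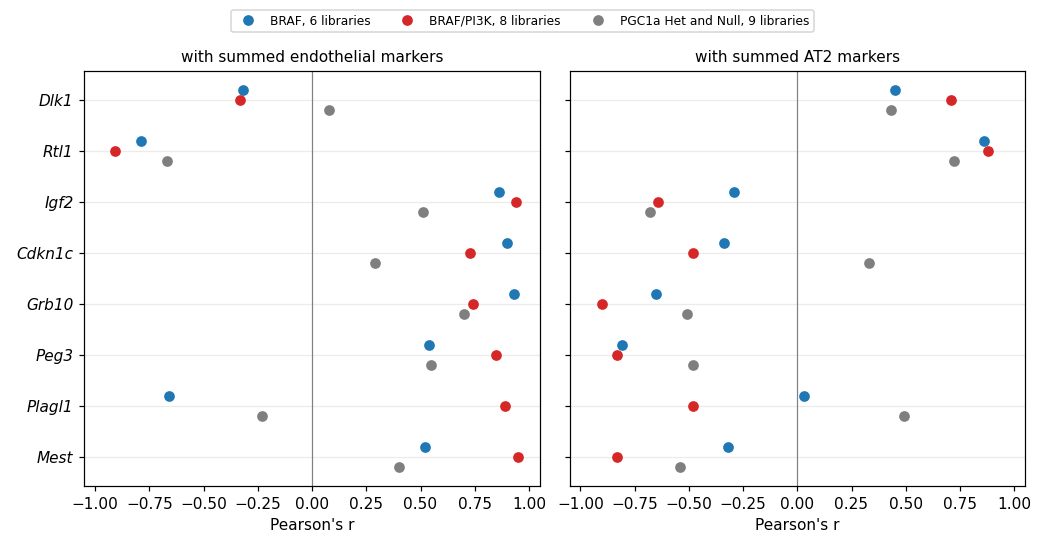
Pearson's r of each gene's log2(normalized count + 1) with the log2 sum of 10 endothelial markers (left) and of 12 AT2 markers (right), over BRAFV600E (6), BRAFV600E/PI3KαH1047R (8) and PGC1α (9, both genotypes) libraries, with weeks mixed. *Rtl1* lies at negative r with endothelial and positive r with AT2 markers in all 3 sets (-0.91 and 0.88 in BRAFV600E/PI3KαH1047R), and *Igf2*, *Grb10*, *Peg3* and *Mest* lie the other way.

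The PGC1α libraries played no part in the choice of *Dlk1*. *Ppargc1a* had 75.8, 170.2, 155, 199.5 and 561 normalized counts in BRAFV600E/PGC1αHet and 72.7, 38.0, 51.6 and 124 in BRAFV600E/PGC1αNull cells, so the groups overlapped in the targeted gene, whose row covers the whole gene. *Dlk1* had 366, 558, 202, 668 and 405 in BRAFV600E/PGC1αHet and 1231, 1972, 116 and 402 in BRAFV600E/PGC1αNull cells. The BRAFV600E/PGC1αNull libraries held both the lowest and the 2 highest values, and the difference was 0.51 (SE 0.66, 95% interval -0.91 to 1.94, adjusted p = 0.998 by limma). *Rtl1* had 395, 520, 540, 691 and 363 against 419, 447, 499 and 276, a difference of -0.29 (SE 0.25, 95% interval -0.84 to 0.27, adjusted p = 0.998), with a narrower spread within each group than *Dlk1*.

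Of the 6 genes outside the domain, 5 had a difference above 0 in this comparison, with a median of 0.55 against 0.01 over all genes, 0 passed an adjusted p under 0.05 and 1 had an unadjusted p under 0.05. Over all genes 0 of 17424 passed (0%) and 667 had an unadjusted p under 0.05. *Grb10* had 31.5, 28.6, 5.86, 32.1 and 19.7 in BRAFV600E/PGC1αHet and 38.4, 65.7, 36.2 and 94.0 in BRAFV600E/PGC1αNull cells. It was the only one of the measured genes whose groups did not overlap, and its difference was 1.36 (SE 0.54, adjusted p = 0.998 by limma). Groups with every BRAFV600E/PGC1αNull library higher were found for 0.941% of genes, and with every one lower for 0.459%. *Cdkn1c* had 31.1, 44.5, 44.4, 74.6 and 22.8 against 77.4, 109.6, 60.4 and 54.4, a difference of 0.84 (SE 0.40, adjusted p = 0.998). *Igf2*, *Mest* and *Peg3* differed by 0.37, 0.58 and 0.51 and *Plagl1* by -0.19, all with an adjusted p of 0.998. The 10 endothelial markers summed to between 358 and 893 in BRAFV600E/PGC1αHet and to between 1456 and 2179 in BRAFV600E/PGC1αNull cells, with *Cldn5* at 0 in 1 BRAFV600E/PGC1αHet library, and the 12 fibroblast and pericyte markers to between 179 and 522 and between 610 and 2105. Neither sum overlapped between the groups, and with the endothelial level as a covariate the *Grb10* difference was 0.82 (adjusted p = 0.794 by limma). The same covariate took the difference of *Dlk1* from 0.51 to 1.79 (adjusted p = 0.621) and that of *Cdkn1c* from 0.84 to 2.46 (adjusted p = 0.509), and none of these passed. Since the endothelial sums of the groups did not overlap, values with this covariate cannot separate genotype from endothelial level.

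**Figure D5:**
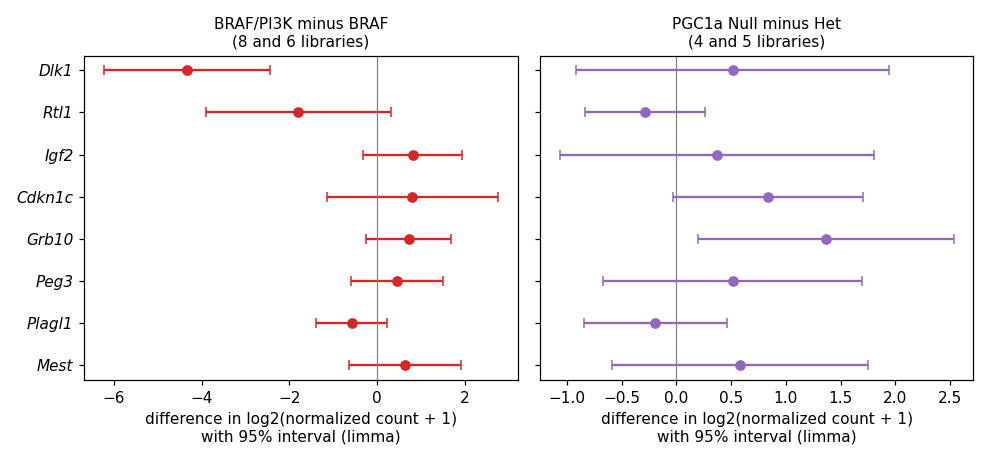
Difference in log2(normalized count + 1) with 95% intervals from limma between BRAFV600E/PI3KαH1047R and BRAFV600E (left) and between BRAFV600E/PGC1αNull and BRAFV600E/PGC1αHet libraries (right). *Dlk1* is at -4.34 on the left, where it was chosen for this difference, and at 0.51 on the right with an interval that holds 0, and the other genes on the left have intervals that hold 0.

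Other imprinted genes were looked at as a list. Of 49 listed, 44 had a row and 36 were tested in the PI3K comparison, 18 were above and 18 below 0, the median was -0.04 against 0.02 over all genes, and 0 passed. The lowest were *Calcr*, the calcitonin receptor gene, at -2.14 (SE 1.37) and *Rtl1*, and the highest were *Sfmbt2*, a Polycomb gene, at 1.76 (SE 1.14) and *Mkrn3* at 1.73 (SE 1.02). In the PGC1α comparison 0 of 32 tested passed, with *Zim1* at -1.13 and *Snrpn* at -0.99 as the lowest and *Dcn*, a fibroblast proteoglycan gene, at 1.90 (SE 0.50, adjusted p = 0.618) and *Asb4* at 1.17 as the highest. Of 12 genes that write, erase or guard imprints, such as *Dnmt1*, *Tet1* and *Zfp57*, 11 were tested and 0 passed in either comparison. *Tet1*, a DNA demethylase, had the highest difference of these in the PI3K comparison, at 0.62 (SE 0.22, adjusted p = 0.565).

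Of 15 genes of the IGF axis, all were tested, 0 passed, and 8 were above 0 in the PI3K comparison. *Igfbp3*, a secreted IGF carrier, was at 2.13 (SE 0.74, adjusted p = 0.543) and *Igf1* at 0.83 (SE 0.31, adjusted p = 0.614), while *Irs2*, an adaptor of the insulin receptor, was at -0.80 (SE 0.25, adjusted p = 0.50) and *Igf2bp1* at -0.19. In the PGC1α comparison *Igfbp5* was at 2.27 (SE 0.85, adjusted p = 0.998), *Igfbp2* at 1.22, *Igf2bp3* at -0.36 and *Igf2r*, the imprinted receptor that clears IGF2, at -0.36. Of 16 genes of the Notch pathway, to which *Dlk1* is related, 14 were tested in the PI3K comparison, 0 passed, and 12 were above 0, with a median of 0.39. By week, 13 of 14 were above 0 at 2 weeks with a median of 1.37, 10 at 6 weeks with a median of 0.11 and 4 at 12 weeks with a median of -0.28, and by limma 0 passed in each, with 7, 1 and 0 at an unadjusted p under 0.05. Of all 17558 genes tested, 2369, 744 and 661 had an unadjusted p under 0.05 by limma at 2, 6 and 12 weeks. The endothelial sum at 2 weeks was 7578 against 60515 and 61615, and its part in the Notch values was not tested. *Dll1* was at 1.45 (SE 0.65, adjusted p = 0.71) and *Dll4* at 0.77 (SE 0.58), both Notch ligands, with *Jag1* at -0.65 (SE 0.32, adjusted p = 0.73) and *Dll3* at -0.06 at the other end. In the PGC1α comparison 0 of 13 passed, and *Hey1*, a Notch target, was at 2.57 (SE 0.73, adjusted p = 0.70), *Jag2* at 0.64, *Dll1* at -0.74 and *Notch1* at -0.74 (SE 0.18, adjusted p = 0.541).

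Over the 14 libraries of the PI3K comparison, the 5 genes whose log2 values followed *Dlk1* most closely among 14206 others with a mean of at least 40 were AC165954.1 (r = 1), *Adgrg7* (r = 0.92), *Cldn2* (r = 0.87), *E330017A01Rik* (r = 0.87) and *Shank2* (r = 0.87). Among the farthest were *Mettl7a3* (r = -0.835), *Mettl7a2* (r = -0.82), *Depdc5* (r = -0.81) and *Acot6* (r = -0.795). These r hold the genotype difference that chose *Dlk1* and are given as a description. Over the 9 PGC1α libraries, r with *Dlk1* was 0.84 for *Cldn2*, 0.84 for *Shank2* and 0.75 for *Adgrg7*, and 0.06 for *E330017A01Rik*. *Cldn2* makes a claudin of tight junctions and *Shank2* a scaffold protein. *Rtl1* stood at place 219 with r = 0.69, and the other imprinted genes lay between -0.53 and 0.29.

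In the 23 libraries, the level of the Y-linked gene *Ddx3y* went against the labelled sex in both BRAFV600E/PI3KαH1047R libraries at 12 weeks, at 55.4 normalized counts where the label was male and 1420 where it was female. Without both, the pooled difference was -4.78 for *Dlk1* and -2.46 for *Rtl1*.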

How the data were processed

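RNA was extracted with Qiagen RNeasy micro columns, made into libraries with the Nugen Ovation Ultralow V2 kit and read as single ends of 50 cycles. The authors quantified reads with Salmon on GRCm38 and deposited, in separate tables for the PI3K and PGC1α comparisons, a DESeq2 normalized count signal per gene; versions are not given in the sources used here. Values are not whole reads, so no count test was run and depth in reads is unknown. The tables were normalized separately and no value was compared across them. Deposited tables of the authors' own comparisons were not used.

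Normalized counts were analysed as log2(normalized count + 1) for genes with a mean of at least 10, with limma 3.58.1 in R 4.3.3 (moderated variance with a trend, two-sided, Benjamini-Hochberg over all genes tested, threshold 0.05), checked on simulated data. The PI3K effect pooled weeks, and models with a mean per genotype and week or with additive genotype and week gave the other contrasts. Correlations were computed over 3 sets of libraries, with exact permutation in scipy 1.17.1. The study counts individual animals as independent replicates and describes the PGC1α mice as littermates, but no label ties a library to an animal, litter or batch, so p-values measure the spread between these samples. The genes and gene lists were chosen with earlier results of these data known. The rule for named genes took the 10 genes, *Ppargc1a*, the 2 highest and 2 lowest differences of the domain, flanking, other imprinted, IGF and Notch lists, and the 5 genes with the highest and the 5 with the lowest r with *Dlk1*. *Dio3*, *Gm3379*, *Gm48048*, *Tet1*, *Cldn5* and *Ddx3y* fall outside it and were chosen after their values were seen. One gene that the rule named is not reported here. Alternatives were another pseudocount, no filter or a stricter one, sex, week, quantile normalization, a replicate block and each library left out. Others were chosen after seeing the data: an endothelial covariate, both BRAFV600E/PI3KαH1047R libraries at 12 weeks left out, *Dlk1* summed with AC165954.1, and correlations of values centred within week or genotype. Correlations planned with *Meg3*, *Rian* and *H19* were replaced by those given.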

Additional observations from a re-analysis of the deposited data

Results flagged for a closer look

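In groups of 4 to 10 libraries, a library was singled out where its gap to the next one, divided by the range of the group, passed Dixon's 95% critical value. This was so for 8 of 40 combinations of gene and group. Chance singles out about 1 in 20 groups, but these combinations overlap, since the 4 BRAFV600E/PI3KαH1047R libraries of 6 weeks are also among the 8 of all weeks, and the values were on a linear scale with weeks mixed, so 1 in 20 is not their expected rate. In BRAFV600E cells, *Igf2* had 371 normalized counts in replicate 1 at 12 weeks against 29.5 to 129 in the other 5 libraries, and *Plagl1* had 2862 in the library at 2 weeks against 671 to 1207. In BRAFV600E/PI3KαH1047R cells, *Dlk1* had 234 in replicate 2 at 6 weeks against 0.566 to 108 in the other 7 libraries. Replicate 1 at 6 weeks stood apart for *Plagl1*, with 2051 against 309 to 993 in the other 7 libraries and 548 to 773 in the other 3 of that week, for *Igf2*, with 304 against 101 to 130 in the other 3, and for *Peg3*, with 1404 against 335 to 514. In replicate 4 at 6 weeks *Cdkn1c* had 31.2 against 346 to 402 in the other 3.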

How the results depend on the processing

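As a description of the value that chose it, the pooled difference of *Dlk1* lay between -4.78 (without both BRAFV600E/PI3KαH1047R libraries at 12 weeks) and -3.31 (sex as a factor), and lay between -4.72 and -3.69 when single libraries were left out. That of *Rtl1* lay between -2.46 and -0.34 and between -2.36 and -1.29. At 2 weeks *Dlk1* lay between -8.392 and -3.765 with a library left out, -8.392 being without replicate 1 and -3.765 without replicate 2 of BRAFV600E/PI3KαH1047R at 2 weeks, and *Mest* between 3.839 and 3.878, passing (adjusted p = 0.0344, limma) only without BRAFV600E/PI3KαH1047R replicate 1 of 6 weeks. Leaving that library out also took the genes called at 2 weeks from 3 to 268. That count was 107 with no filter, 1 without both 12-week libraries, and 0 with a pseudocount of 4, sex, quantile normalization, the replicate block or the endothelial covariate, and the count at 12 weeks went from 2 to 16 with no filter, to 4 with a pseudocount of 4 or quantile normalization and to 0 with the block. The causes of these and the following shifts were not tested.

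With the endothelial level as a covariate the sign turned for *Igf2* (-0.002), *Cdkn1c* (-0.524), *Peg3* (-0.156) and *Mest* (-0.125) with weeks pooled, for *Igf2* (-0.056), *Cdkn1c* (-0.046) and *Peg3* (-1.752) at 2 weeks, and for *Peg3* (-0.199) and *Rtl1* (0.096) at 12 weeks. It also turned for *Mest* (0.043) between 2 and 6 weeks, for *Dlk1* (-0.269) and *Igf2* (0.512) between 6 and 12 weeks, and for *Igf2* (-2.364), *Peg3* (-1.243) and *Rtl1* (0.648) in the PGC1α comparison. In that comparison the endothelial sums of the groups did not overlap, so these values cannot separate genotype from endothelial level. With sex as a factor the sign turned for *Mest* at 12 weeks (0.253) and for *Dlk1* between 6 and 12 weeks (-0.265), which a pseudocount of 4 also turned (-0.013). Every fit with sex as a factor used the labelled sex, which *Ddx3y* went against in both BRAFV600E/PI3KαH1047R libraries at 12 weeks. Without the 2 farthest libraries r with *Dlk1* turned for *Mest* in BRAFV600E (-0.16), for *Igf2* (0.07), *Grb10* (0.18), *Peg3* (0.16), *Plagl1* (0.01) and *Mest* (0.06) in BRAFV600E/PI3KαH1047R, and for *Rtl1* in PGC1α libraries (0.09), as did r of *Dlk1* with the endothelial sum there (-0.07). Centred within week or genotype, r with *Dlk1* turned for *Mest* in BRAFV600E (-0.22), for *Igf2* (0.42), *Cdkn1c* (0.42), *Plagl1* (0.22), *Mest* (0.35) and the endothelial sum (0.17) in BRAFV600E/PI3KαH1047R, and for *Rtl1* (0.06) and the endothelial sum (-0.28) in PGC1α libraries.

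Deviations of same-numbered libraries gave r of -0.284, -0.033 and -0.0138 at 6 weeks, and 0.211, -0.213, 0.145 and -0.467 in the PGC1α table. These r do not show pairing by number, and they rest on too few libraries to exclude it. With the replicate block, *Dlk1* was -3.36 and *Rtl1* -1.30 with weeks pooled, *Plagl1* turned at 6 weeks (0.040) and *Peg3* at 2 weeks (-0.496), *Dlk1* at 2 weeks was -3.765, and 0 genes passed at 6 weeks. At 12 weeks same-numbered libraries had r = -0.146 and the other pairs r = 0.146. With 2 libraries in each group these r can differ only in sign, so they cannot decide on pairing. With weeks pooled 6 genes passed with the replicate block, and 6 with the numbers of 12 weeks crossed.

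Genes passing with weeks pooled numbered 4, and 7 with a pseudocount of 4. At 6 weeks they numbered 4, and 7 with a pseudocount of 4 or quantile normalization, 1 with no filter, with sex or without both 12-week libraries, and 10 with the endothelial covariate. Between 2 and 6 weeks they numbered 9, and 3 with a pseudocount of 4 or without both libraries, 4 with sex or quantile normalization, and 231 with the endothelial covariate. In the interaction they numbered 0, and 2 with no filter or quantile normalization. With each library left out, they ran from 3 to 9 with weeks pooled (9 without BRAFV600E/PI3KαH1047R replicate 1 of 12 weeks), from 1 to 12 at 6 weeks (12 without either BRAFV600E library of 12 weeks), from 0 to 1 in the interaction, and from 1 to 102 between 2 and 6 weeks (102 without the BRAFV600E library of 2 weeks, 47 without BRAFV600E/PI3KαH1047R replicate 1 of 6 weeks).

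With a library left out, the change from 2 to 6 weeks ran from 0.591 to 2.956 for *Dlk1* and from 0.468 to 3.122 for *Rtl1*. The following crossed 0. At 12 weeks *Cdkn1c* ran from -3.942 to 1.127, *Grb10* from -0.356 to 2.082, *Igf2* from -2.033 to 1.339, *Mest* from -0.649 to 0.553, *Peg3* from -0.565 to 0.800 and *Rtl1* from -1.590 to 0.676. At 6 weeks *Cdkn1c* ran from -0.015 to 1.568, *Grb10* from -0.475 to 0.175, *Peg3* from -0.285 to 0.805, *Plagl1* from -0.594 to 0.040 and *Rtl1* from -1.836 to 0.171, and at 2 weeks *Peg3* from -0.496 to 1.342. Between 2 and 6 weeks *Cdkn1c* ran from -1.118 to 1.031, *Grb10* from -0.850 to 0.391, *Igf2* from -0.764 to 0.634 and *Mest* from -1.541 to 0.492, and between 6 and 12 weeks *Dlk1* from -0.384 to 0.547 and *Igf2* from -0.946 to 0.278. In the interaction *Rtl1* ran from -0.812 to 1.454, and in the PGC1α comparison *Dlk1* ran from -0.074 to 1.283, *Igf2* from -0.100 to 0.718 and *Plagl1* from -0.410 to 0.073. Depth in reads is unknown, which limits what can be said of genes near the filter.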
